A study of Mus musculus with 10 samples.

Results

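Left ventricular cardiac myocytes labelled as CTCF knockout were compared directly with myocytes from pressure-overloaded hearts. Members were chosen by their titles: the 4 libraries titled as CTCF knockout (replicates 1 to 4) and the 3 titled as TAC (replicates 1 to 3), which makes 7 of the 10 libraries in the series. The 3 control libraries serve as a reference level, and they also enter the rescaling, the filter on level and the estimate of the spread. All 10 libraries are labelled as C57BL/6 and as isolated cardiac myocytes, and each has a mouse number of its own. TAC, transverse aortic constriction, is a surgical narrowing of the aorta, and the series calls the hearts of these mice diseased. The labels give the genotype of the knockout mice only as CTCF knockout. They name no Cre driver or allele, no age, no time after deletion or surgery, and no genotype for the TAC or control mice. Whether the controls carried a floxed allele or had a sham operation is therefore not given in the sources used here.

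CTCF, a protein with many zinc fingers, recognizes a long DNA motif that has a direction. Together with the ring-shaped cohesin complex it sets the anchors of chromatin loops and the borders of domains. Pressure overload is a mechanical stress on the heart. It is known for a return of fetal genes such as the natriuretic peptides, growth of the myocyte, and lower expression of fuel and calcium genes.

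Levels are in FPKM, fragments scaled to transcript length and library size, summed over the transcripts of a gene and rescaled between libraries. A log2 difference is the mean of log2(FPKM + 1) in knockout minus that in TAC, so positive values are higher in knockout. A gene was called when its p from limma, a linear model with moderated variances fitted to all tested genes, was under 0.05 after Benjamini-Hochberg adjustment over those genes. No read counts are in the files, so depth is unknown. The p-values measure the spread between mice, and each group is small.

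Of 11358 tested gene IDs, 372 (3.28%) were called between knockout and TAC. Of these, 179 (1.58% of those tested) were higher in knockout and 193 (1.7%) were lower. Without rescaling of the libraries the split was 212 higher and 120 lower of 332, a higher share of 63.9% in place of 48.1%. An unadjusted p under 0.05 was reached by 2042 gene IDs. Most differences were modest: the median size among called genes was 0.67 on the log2 scale, and 43 called genes differed by at least 1, 24 of them higher and 19 lower in knockout. For 10825 gene IDs (95.3%) the 95% confidence interval of the difference lay within 1 log2 unit of 0 on both sides. In all 372 called genes the 4 knockout values and the 3 TAC values did not overlap, which held for 18.1% of all tested gene IDs (knockout above TAC in 8.43% and below in 9.64%). Called genes higher in knockout had a median level of 4.98 FPKM, and those lower in knockout one of 15.8 FPKM.

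The number of calls rested on single libraries. It was 152 without knockout replicate 1, 133 without knockout replicate 3, 156 without TAC replicate 1, 135 without TAC replicate 2 and 189 without TAC replicate 3. Xist and Y-linked genes marked 1 of the 4 knockout mice, replicate 4, as male, and TAC replicates 1 and 3. With sex as a covariate 233 genes were called, 117 higher and 116 lower. Among 85 called genes that met the naming rule, 31 kept their call in every one of 24 alternative analyses that tested them, 54 lost it in at least 1 and none changed direction. For genes that lost their call, the text gives in how many of the 24 it was kept, or of how many where a filter removed the gene from some.

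**Figure D1:**
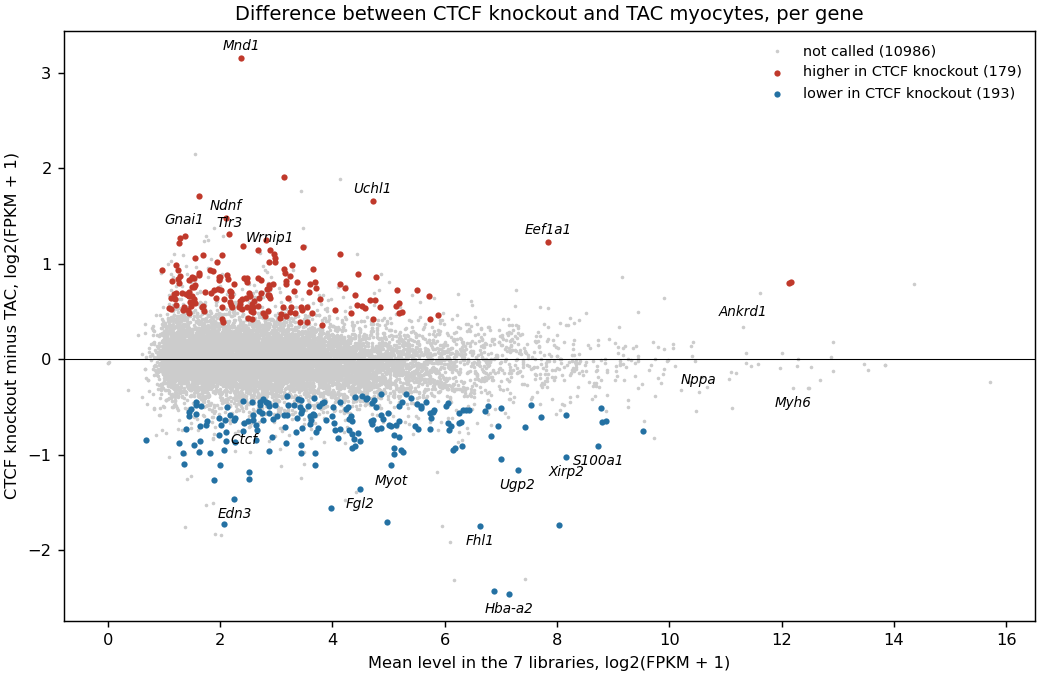
Each point is a gene ID, with its mean level over the 7 knockout and TAC libraries on the x axis and the difference of knockout minus TAC on the y axis, both on the log2(FPKM + 1) scale. Red points (179) are called higher in knockout and blue points (193) lower; Mnd1 lies highest and Hba-a2 lowest.

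As a check of the cell type, 21 genes of the mature sarcomere summed to 34380 to 45300 FPKM in the knockout libraries and 35360 to 45890 in TAC. Markers of other cells gave far lower sums. For fibroblasts the range was 201 to 331 FPKM in knockout and 221 to 270 in TAC, for endothelium 237 to 390 and 330 to 364, and for macrophages and leukocytes 135 to 206 and 165 to 190. No gene of these 3 lists was called, of 13, 19 and 20 tested, where 3.28% of all tested gene IDs were called. Lymphocyte markers summed to at most 2.51 FPKM in knockout and 2.33 in TAC. Erythroid markers stood apart, with 130 to 633 FPKM in knockout, 952 to 1680 in TAC and 289 to 1199 in control. In bulk RNA, fewer cells of a type and less RNA per cell cannot be told apart.

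Ctcf itself, ENSMUSG00000005698, was measured at 2.9, 4.01, 2.6 and 4.42 FPKM in knockout replicates 1 to 4 and at 7.32, 5.7 and 5.22 in TAC replicates 1 to 3. In control it was at 8.81, 8.34 and 6.8. Every knockout value lay below every TAC value, but Ctcf RNA was still present in the knockout libraries at a mean of 3.48 FPKM. The deleted exons are not labelled, and the gene total also counts exons outside the deletion. The log2 difference from TAC was -0.67 (SE 0.16), with a limma adjusted p of 0.048. That call is at the edge of the threshold: it held in 12 of 24 alternatives, and the adjusted p ranged from 0.0107 to 0.159. It was lost on leaving out any of control replicate 2 (0.0676), knockout replicates 1 (0.117), 2 (0.0613) and 3 (0.124), or TAC replicates 1 (0.159), 2 (0.118) and 3 (0.0703). Among 24 tested genes of cohesin and chromatin architecture, only Ctcf and Stag1 were called, against 3.28% of all genes. Stag1, a subunit of cohesin, was at 11.2, 13.1, 10.6 and 10.6 FPKM in knockout and 5.89, 7.3 and 6.47 in TAC, a difference of 0.71 (limma adjusted p 0.0169; kept in 20 of 24).

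Start regions of called genes were searched on both strands for the 12-base core of the motif that CTCF binds, with 4 positions left free. Windows of 250 bases before to 50 after the start came from RefSeq (GRCm38.p6). Genes with a window were counted as matching if any of their windows held a match. These were 5 of 124 genes higher in knockout (4.03%), 6 of 141 lower in knockout (4.26%) and 289 of 8341 of all tested genes (3.46%). The share among called genes was thus close to that among all tested genes. A match is a description of letters and not of binding. The 250 bases before the start of 2 matching genes are shown, chosen after their values were seen, because they hold no annotated exon and carry the largest difference in each direction. Capitals mark the match.
Cryz (higher in knockout; GRCm38.p6, chr3:154596461-154596710, + strand): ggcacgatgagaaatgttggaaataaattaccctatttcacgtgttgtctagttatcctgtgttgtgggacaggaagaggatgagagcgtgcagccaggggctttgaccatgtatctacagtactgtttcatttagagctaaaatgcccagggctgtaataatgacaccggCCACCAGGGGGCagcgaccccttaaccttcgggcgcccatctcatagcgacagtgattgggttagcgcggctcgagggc
C1qbp (lower in knockout; GRCm38.p6, chr11:70983027-70983276, - strand): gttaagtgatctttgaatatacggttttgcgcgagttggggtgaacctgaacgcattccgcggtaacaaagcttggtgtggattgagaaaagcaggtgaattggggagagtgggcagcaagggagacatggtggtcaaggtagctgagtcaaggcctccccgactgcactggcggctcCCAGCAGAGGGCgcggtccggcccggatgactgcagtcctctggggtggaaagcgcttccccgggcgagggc
Cryz, a quinone oxidoreductase, was at 5.76, 5.15, 6.02 and 4.44 FPKM in knockout and 2.59, 4.05 and 2.73 in TAC, a log2 difference of 0.63 (limma adjusted p 0.0296), and its match starts 79 bases before the start of the gene. C1qbp, a mitochondrial matrix protein, was at 13.3, 20.3, 14.5 and 19.2 FPKM in knockout and 43.8, 25 and 26.4 in TAC, a difference of -0.85 (adjusted p 0.0419), and its match starts 72 bases before the start.

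The largest difference was in Mnd1 (ENSMUSG00000033752), which encodes a partner of the recombinases that pair chromosomes in meiosis. It was at 12.3, 12.6, 16.3 and 8.85 FPKM in the knockout libraries, 0.362, 0.537 and 0.569 in TAC and 0.57, 0.355 and 0.997 in control. TAC and control shared the same low range and all 4 knockout libraries stood above it, with a log2 difference from TAC of 3.16 (SE 0.18, limma adjusted p 1.46e-05). Of its 100-base stretches, 16.2% are shared with the pseudogene Mnd1-ps, so part of the signal is uncertain in origin.

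Uchl1, a deubiquitinase best known from neurons, was at 40.9, 45.2, 45.8 and 37.4 FPKM in knockout, 8.45, 15.6 and 15.2 in TAC and 4.59, 6.31 and 5.13 in control. Both groups lay above control, and knockout lay above TAC by 1.66 (SE 0.18, adjusted p 0.00208 by limma). Eef1a1, the translation elongation factor of most tissues, was at 347, 338, 322 and 319.9 FPKM in knockout, 128, 130.5 and 166 in TAC and 83.2, 95.6 and 118 in control. Its difference was 1.23 (SE 0.14, adjusted p 0.00208 by limma). Eef1a1 is the most abundant of the 15 protein-coding or long noncoding genes with the largest positive differences, a set that leaves out pseudogenes and unclassified transcripts. Its processed pseudogenes Gm13456, Gm6767 and Gm5869 were also called higher, at 1.11, 0.76 and 0.83, but 26.7% of the Eef1a1 stretches are shared with other gene IDs, so these 4 values are not independent. Eef1a2, the form that replaces Eef1a1 in adult muscle, was at 239, 216, 259 and 249 FPKM in knockout, 337, 394 and 351 in TAC and 296, 366 and 388 in control. It was lower in knockout, with a log2 difference of -0.58 (limma adjusted p 0.0267), so the pair moved in opposite directions; Eef1a2 was picked out after its values were seen.

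Several other leading genes sat in TAC near the control level. Ndnf, a secreted factor first described in neurons, was at 5.57, 4.18, 7.75 and 5.78 FPKM in knockout and 1.39, 0.938 and 2 in TAC, with 2.12, 2.71 and 1.82 in control, and differed by 1.48 (adjusted p 0.00341). Tlr3, a sensor of double-stranded RNA, was at 4.78, 8.15, 5.75 and 4.41 FPKM in knockout, 1.94, 1.44 and 1.66 in TAC and 1.57, 1.54 and 1.56 in control, a difference of 1.31 (limma adjusted p 0.00336). Serpinb9, an inhibitor of granzyme B, was at 10.9, 9.97, 10.5 and 6.41 FPKM in knockout, 2.78, 3.43 and 3.84 in TAC and 3.06, 2.91 and 3.81 in control (1.25, adjusted p 0.00365). In each of the 3 genes the TAC and control values lay side by side below all knockout values. Btg3, an antiproliferative protein, differed by 1.15, and Fbxl22, an F-box protein of the sarcomere, by 1.10 (adjusted p 0.00341 and 0.00851). Of the Btg3 stretches, 11.6% are shared with the pseudogene Gm7334, which was also called higher.

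Gnai1, an inhibitory G protein subunit, was below control in TAC and above it in knockout. Its levels were 3.17, 3.25, 2.98 and 1.97 FPKM in knockout, 0.92, 0.326 and 0.464 in TAC and 1.02, 1.27 and 1.11 in control, a difference of 1.30 (adjusted p 0.00336). The same order was seen at a pair of overlapping genes on chromosome 13. Wrnip1, a protein of replication forks, was at 11, 9.2, 10.3 and 7.58 FPKM in knockout, 3.56, 3.46 and 4.13 in TAC and 5.89, 6.51 and 6.67 in control (1.15, limma adjusted p 0.00208). D930007J09Rik, on the opposite strand with a start 811 bases away, was at 8.14, 6.07, 7.34 and 4.94 FPKM in knockout, 2.29, 2.01 and 2.67 in TAC and 4.11, 4.92 and 4.81 in control (1.18, limma adjusted p 0.00336). The 2 genes overlap, and the library kit is stranded per the labels, but use of strand in the authors' assembly is not given in the sources used here, so their reads may not be fully separated.

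The remaining genes of that set of 15 had fragile calls. Lockd, a long noncoding RNA, was listed at 0 in all 3 controls, at 2.77, 4.41, 1.65 and 11.7 FPKM in knockout and at 1.02, 0.335 and 0.406 in TAC. The mitosis gene Cdca3 was at 2.04, 1.96, 1.56 and 6.16 FPKM in knockout and 0.712, 0.24 and 0.529 in TAC, and Stmn1, which destabilizes microtubules, at 12.6, 10.4, 12.3 and 29.4 and 6.88, 6.68 and 4.62. In all 3, knockout replicate 4 stood well above the other knockout libraries. Palm2, a membrane-bound paralemmin, was at 3.99, 1.45, 3.84 and 1.4 FPKM in knockout and 0.776, 0.205 and 0.527 in TAC, and it overlaps the gene Pakap. Their calls held in 12 of 22 alternatives for Lockd, 12 of 21 for Cdca3, 11 of 24 for Stmn1 and 10 of 23 for Palm2. Without TAC replicate 2 the adjusted p by limma was 0.145 for Lockd, 0.143 for Cdca3 and 0.12 for Stmn1.

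**Figure D2:**
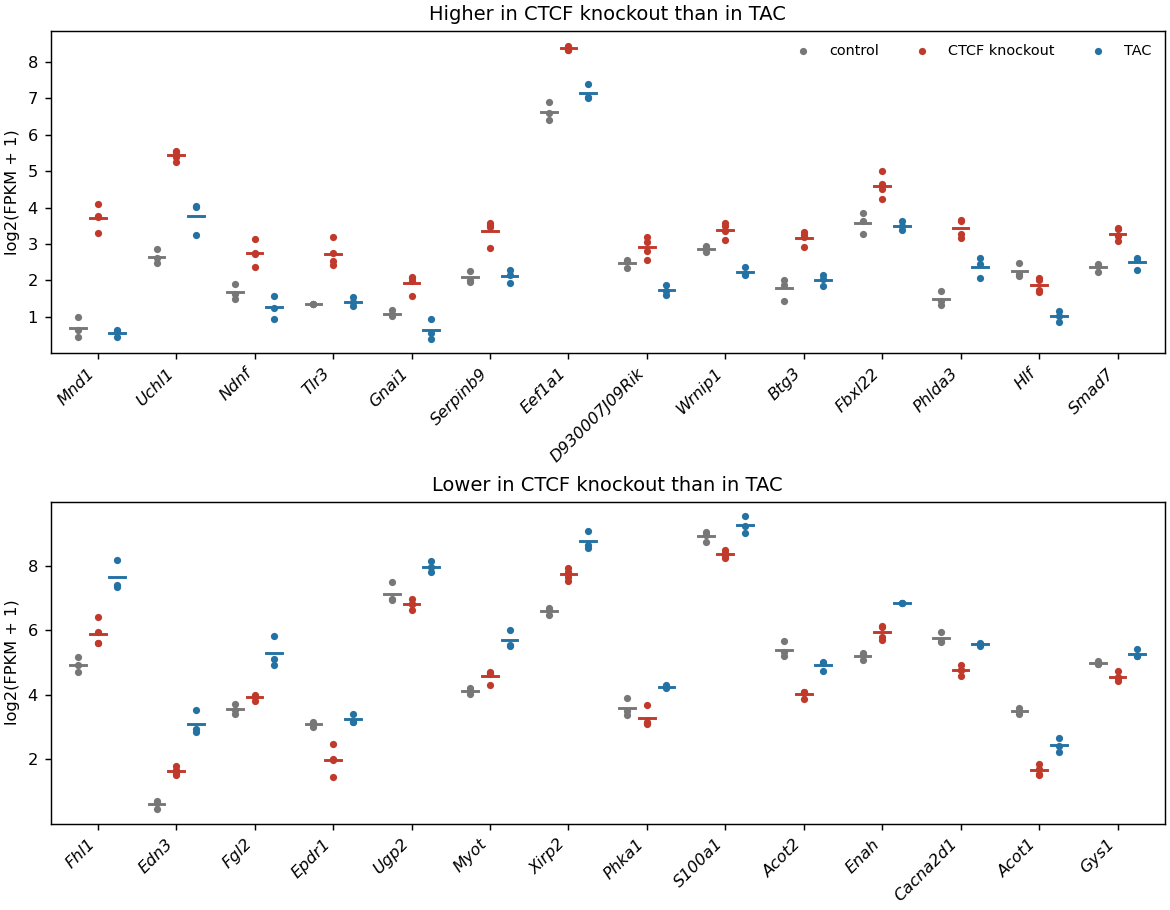
Each dot is 1 library and each bar a group mean, on the log2(FPKM + 1) scale, for genes named by the rule that kept their call in every alternative that tested them, 14 with positive differences above and 14 with negative ones below. The red knockout dots and blue TAC dots do not overlap in any of them, while the grey control dots lie near TAC for Mnd1 and Serpinb9, near knockout for Ugp2 and Phka1, and below both for Edn3.

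Genes lower in knockout than in TAC were led, among those stable in every alternative, by Fhl1 (ENSMUSG00000023092), a LIM domain protein of the sarcomere that takes part in sensing stretch. Fhl1 was at 47.9, 84, 60.4 and 47.5 FPKM in knockout, 167, 159.6 and 288 in TAC and 34.6, 29.5 and 25 in control. Both groups lay above control, and all TAC values above all knockout values, with a difference of -1.74 (SE 0.24, limma adjusted p 0.00396).

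The Fhl1 difference was uneven between transcripts, which were summed by their start after this was seen and are described with no test. The 3 transcripts that start between 56731787 and 56732129 on the X chromosome (mm10) summed to 18.3, 26.6, 20.1 and 22.2 FPKM in knockout and 25.6, 25.4 and 36.7 in TAC, with means of 21.8 and 29.2 against 21.3 in control. Another 4 transcripts start between 56779437 and 56779819. They summed to 27.5, 52.1, 34.0 and 21.9 FPKM in knockout and 123, 126 and 239 in TAC, where control had a mean of 6.28. The mean in TAC was 4.80 times that in knockout for the inner start and 1.34 times for the outer one. A further 3 transcripts start between 56786527 and 56787998. Their sums had means of 4.31 FPKM in knockout, 12.9 in TAC and 2.05 in control, a ratio of TAC to knockout of 3.0 that lies between the other ratios. Cufflinks divides shared reads between such transcripts by estimation, so these sums are less certain than the gene total.

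Edn3, an endothelin peptide, was at 2.18, 1.98, 1.84 and 2.44 FPKM in knockout, 6.63, 10.4 and 6.15 in TAC and 0.571, 0.615 and 0.369 in control (-1.46, adjusted p 0.00208). Fgl2, a prothrombinase, was at 13.1, 14.2, 14.6 and 14.8 FPKM in knockout, 29.2, 54.8 and 33.7 in TAC and 10.6, 9.6 and 12.2 in control (-1.36, adjusted p 0.00344). The knockout values of Fgl2 lay within a narrow range just above control. Myot, a protein of the Z-disc, was at 24.6, 25.1, 18.6 and 23.7 FPKM in knockout, 44.5, 63.6 and 45.6 in TAC and 17.4, 16.1 and 15.1 in control, a difference of -1.11 (limma adjusted p 0.00341).

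Epdr1, a lysosomal protein, showed a different order, with control level with TAC and knockout below both. It was at 3.01, 1.73, 2.94 and 4.55 FPKM in knockout, 7.97, 9.43 and 7.8 in TAC and 7.44, 7.95 and 6.92 in control (-1.25, adjusted p 0.0062). Timp4, an inhibitor of metalloproteinases, was at 3.85, 0.934, 1.02 and 1.24 FPKM in knockout and 4.45, 6.18 and 4.89 in TAC, with replicate 1 high among the knockout libraries (-1.26, adjusted p 0.0397, kept in 14 of 23). Also among the 15 protein-coding or long noncoding genes with the largest negative differences were Ptgds, a prostaglandin D synthase (-1.73, kept in 19), Cpxm2, a carboxypeptidase-like protein (-1.56, kept in 21), and Mal, a protein of lipid-rich membranes (-1.18, kept in 22).

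Red cell transcripts gave the most negative values. Hba-a2, an alpha globin gene, was at 68.5, 152, 52 and 37.8 FPKM in knockout, 378, 501 and 276 in TAC and 314, 80.2 and 99 in control, a difference of -2.46 (limma adjusted p 0.0244, kept in 17 of 24). Hba-a1 gave -2.42, but 56.5% of its stretches are shared with Hba-a2 and the 2 values are not independent. Alas2, the heme synthesis enzyme of red cells, differed by -1.73, and Tfrc, the transferrin receptor, which myocytes also express, by -1.70 (kept in 13 of 23 and 14 of 24). Of 9 measured erythroid genes 5 were tested, 3 of them were called lower in knockout (1.7% of all tested), and all 5 had groups that did not overlap (18.1% of all tested). Epb42, a red cell membrane protein, was at 0 in at least 1 of the 7 libraries. Control replicate 1 reached TAC-like globin levels while the other controls did not. Leaving out TAC replicate 2 gave Hba-a2 an adjusted p of 0.104 by limma, and leaving out any of knockout replicates 1, 3 and 4 or TAC replicate 1 gave 0.0504 to 0.0734. The part of red cells in the samples in any other result was not tested.

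Relative to control, the called genes took several forms. The mean control level was nearer to TAC than to knockout in 220 of 372 called genes (59.1%), against 50.7% of all tested gene IDs. It was nearer to TAC in 117 of the 179 higher in knockout (65.4%) and in 103 of the 193 lower in knockout (53.4%). Control lay between the groups in 170 called genes (45.7%), where knockout and TAC stood on opposite sides of it, against 23.0% of all tested. It lay beyond TAC in 121 (32.5%, against 38.9% of all tested) and beyond knockout in 81 (21.8%, against 38.1%). In those genes both groups stood on 1 side of control at different distances. These counts use the same knockout and TAC values as the calls and are a description with no test.

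The panel of heart failure genes held few differences past the threshold. Nppa, the atrial natriuretic peptide, was at 1457, 1264, 1772 and 958 FPKM in knockout, 1016, 1960.0 and 2381 in TAC and 43.8, 43.8 and 43.3 in control. Both groups lay far above control and overlapped each other, and the difference was -0.34 (95% confidence interval -0.92 to 0.25, adjusted p 0.554 by limma). Nppb, the companion peptide, was at 576, 859, 756 and 523 FPKM in knockout and 762, 1352 and 1573 in TAC (-0.82, interval -1.74 to 0.10, limma adjusted p 0.335). Ankrd1, a stretch-responsive ankyrin repeat protein, was at 2629, 2772, 3038 and 2781 FPKM in knockout, 1558, 2569 and 2719 in TAC and 160.4, 359 and 253 in control (0.34, interval -0.22 to 0.89). The data do not show that these genes are equal in the groups, since their intervals allow differences of more than 0.8 on the log2 scale.

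The myosin heavy chains also did not pass. Myh7, the slow form that returns under load, was at 641, 841, 588 and 933 FPKM in knockout and 224, 521 and 573 in TAC, where all knockout values lay above all TAC values (0.86, interval 0.09 to 1.63, limma adjusted p 0.225). Myh6, the adult form, was at 4343, 4520.0, 4670.0 and 3778 in knockout and 5218, 4955 and 5738 in TAC (-0.30, interval -0.63 to 0.04). The 2 genes share 11.4% of the Myh6 stretches. Atp2a2, the calcium pump of the sarcoplasmic reticulum, and its inhibitor Pln differed by -0.21 (interval -0.54 to 0.13) and 0.18 (interval -0.11 to 0.48). Ryr2, the release channel, was at 65.5, 114, 83.3 and 116 FPKM in knockout, 248, 175 and 159 in TAC and 308, 189.5 and 158 in control, and its difference of -1.04 missed the threshold narrowly (adjusted p 0.0506 by limma). Rcan1, a target of calcineurin, was at 48, 64.2, 65.7 and 66.4 in knockout and 124, 97.1 and 109 in TAC (-0.84, limma adjusted p 0.149). The Rcan1 controls, which enter the estimate of the spread, were at 11.6, 17.1 and 37.7. Ryr2 was called lower in 7 of 24 alternatives and Rcan1 in 2. Both were called in the fit of the 7 knockout and TAC libraries only and without control replicate 3.

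Xirp2, an actin-binding protein of the intercalated disc and costamere, was the panel gene with a stable call. It was at 184, 221, 201 and 239.9 FPKM in knockout, 375, 394 and 536 in TAC and 101, 88.3 and 97.7 in control, so both groups stood above control and TAC stood higher (-1.03, SE 0.14, adjusted p 0.00413 by limma). It overlaps Gm13601 on the opposite strand, which was also lower in knockout. Of 18 fetal and stress genes tested, 3 were called, all lower in knockout (1.7% of all tested): Xirp2, Fhl1 and Enah. Enah, a regulator of actin filaments, was at 51.1, 66.7, 54.6 and 69.2 FPKM in knockout and 113, 113 and 112 in TAC, with 33, 36.9 and 38.2 in control (-0.90, adjusted p 0.00344). The list's median difference was -0.54, with 16 of 18 below 0, beside a median of -0.01 over all tested gene IDs. This panel and list were drawn up with earlier results of these data known.

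**Figure D3:**
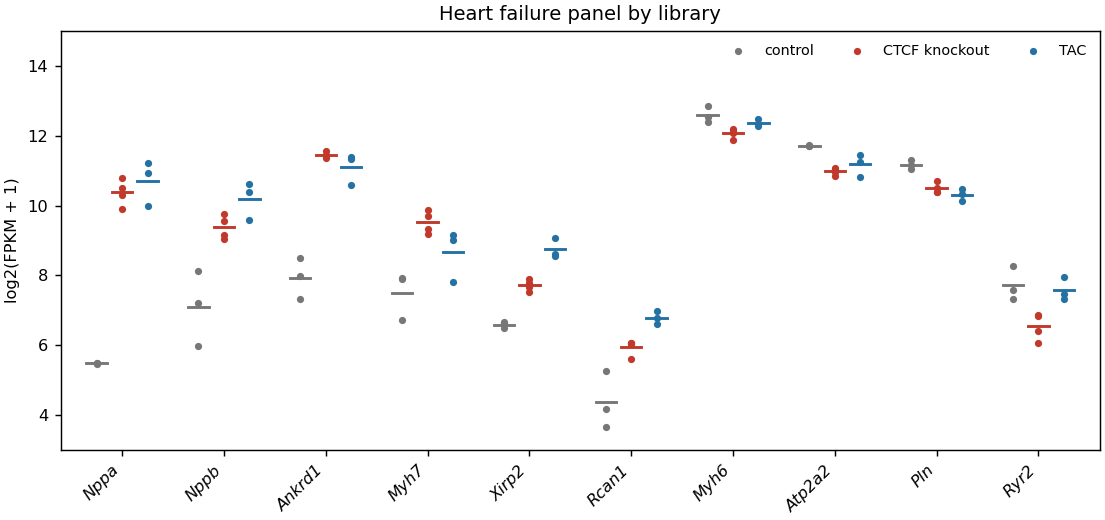
Each dot is 1 library and each bar a group mean, on the log2(FPKM + 1) scale, for the heart failure panel. Knockout and TAC stand together above control for Nppa, Nppb and Ankrd1 and overlap there, whereas for Xirp2, Rcan1 and Ryr2 all knockout dots lie below all TAC dots.

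In the contractile apparatus, 1 of 21 mature sarcomere genes was called, against 3.28% of all tested gene IDs. It was Myom1, an M-band protein that was lower in knockout (-0.51, limma adjusted p 0.028, kept in 14 of 24). The list's median was -0.03. Of 19 costamere and dystrophin complex genes, the laminin receptor subunit Itga7 was called lower, against 1.7% of all tested (-0.49, limma adjusted p 0.0247, kept in 16). Among intercalated disc genes 1 of 17, Xirp2, was called (3.28% of all tested). Des, the intermediate filament of muscle, was at 659, 603, 664 and 539.9 FPKM in knockout and 748, 959.9 and 1247 in TAC without passing (-0.65, limma adjusted p 0.0669). Beyond the lists, some genes typical of other striated muscle were picked out after their values were seen. Tnnt1, the slow skeletal troponin T, was at 12.1, 10.2, 11.6 and 9.28 FPKM in knockout and 4.65, 6.07 and 4.57 in TAC (0.95). Myl1, a fast skeletal myosin light chain, was at 34, 19.6, 28.7 and 31.5 FPKM in knockout and 54.5, 65.1 and 48 in TAC (-0.97). The neighbouring beta tubulins Tubb2a and Tubb2b were lower in knockout, at -0.93 and -0.76, with both groups above control.

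Ion transport held called genes in both directions. Of 13 tested sodium channels, pumps, pacemaker channels and connexins 6 were called, and of 18 potassium channels 6, against 3.28% of all genes. Cacna2d1, an auxiliary subunit of calcium channels, was at 23, 26.3, 26.4 and 29.1 FPKM in knockout, 47.5, 44.6 and 46 in TAC and 60.7, 49.5 and 48.6 in control (-0.79, limma adjusted p 0.00413). S100a1, a calcium sensor that acts on the calcium pump and release channel, was at 359.5, 299, 331 and 314 FPKM in knockout, 518, 599 and 735 in TAC and 425, 526 and 492 in control (-0.91, adjusted p 0.0062). They were the called members of 20 calcium handling genes (1.7% of all tested were called lower), whose median was -0.22 with 17 below 0. Cacna1s, the calcium channel of skeletal muscle, was outside the list and was at 0.777, 0.697, 1.03 and 1.08 FPKM in knockout, 3.09, 3.04 and 2.13 in TAC and 3.12, 3.54 and 4.39 in control (-0.98, adjusted p 0.00489).

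Scn4a, the sodium channel of skeletal muscle, was at 1.27, 1.48, 1.78 and 3.43 FPKM in knockout, 6.55, 5.29 and 4.06 in TAC and 8.8, 7.46 and 7.01 in control (-1.11, limma adjusted p 0.0196). Atp1b1, a sodium pump subunit, was at 43.7, 66.6, 51.5 and 54.6 FPKM in knockout and 111, 83.3 and 78.6 in TAC (-0.74, adjusted p 0.026). The connexin Gjc1 was higher, with 8.22, 9.25, 6.97 and 8.65 FPKM in knockout and 4.7, 3.23 and 5.42 in TAC (0.78, adjusted p 0.0218). The calls were kept in 18 of 23 alternatives for Scn4a, 16 of 24 for Atp1b1 and 18 of 24 for Gjc1.

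Among potassium channels, Kcnq1, which carries the slow delayed rectifier current, and Kcnk3, a leak channel, were lower, at -0.43 and -0.64 (kept in 17 and 10 of 24). Kcnj11, the pore of the ATP-sensitive channel, was at 42.8, 44.1, 43.3 and 34.7 FPKM in knockout and 29.2, 27 and 30.7 in TAC (0.49, adjusted p 0.0294, kept in 16). Kcnh2 and Kcnj5 were higher by 0.75 and 0.48 (kept in 12 and 11). A pair of overlapping genes outside the lists showed opposite signs: Kcng2, a silent channel subunit, was lower, at -0.70, and the transcript D330025C20Rik, with a start 1473 bases away, was higher by 1.92 at 11.4, 18.1, 20.3 and 10.4 FPKM in knockout and 2.61, 2.47 and 4.55 in TAC. Of 21 adrenergic and phosphodiesterase genes, Pde4b, which breaks down cyclic AMP, was called higher (0.55, kept in 16), against 1.58% of all tested.

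In the fuel lists, which do not hold every fuel gene, called genes were lower in knockout with a single exception. Ugp2, the enzyme that makes UDP-glucose for glycogen, was at 110.2, 125, 111 and 98.3 FPKM in knockout, 223, 246 and 279 in TAC and 124, 177 and 122 in control (-1.16, SE 0.15, limma adjusted p 0.00341). Phka1, a subunit of phosphorylase kinase, was at 7.6, 11.9, 7.97 and 7.55 FPKM in knockout, 17.9, 18.7 and 17.4 in TAC and 13.7, 10.3 and 9.31 in control (-0.98, adjusted p 0.00937). Gys1, glycogen synthase of muscle, was at 20.5, 25.4, 21.7 and 22.6 FPKM in knockout, 35.5, 41.8 and 35.6 in TAC and 31.8, 29.7 and 29.8 in control (-0.72, adjusted p 0.00474). Gaa, the lysosomal enzyme that breaks glycogen down, was lower, at -0.70 (adjusted p 0.0102, kept in 23). These 4 of 20 glycogen genes (1.7% of all tested gene IDs were called lower) act in synthesis or breakdown, and the list's median was -0.19.

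In lipid storage 5 of 21 genes were called, all lower in knockout (1.7% of all tested), with a list median of -0.29. Acot2, a mitochondrial acyl-CoA thioesterase, was at 16, 15.5, 15.8 and 13.4 FPKM in knockout, 25.8, 30.7 and 31.5 in TAC and 35.4, 49.2 and 39 in control (-0.91, adjusted p 0.00413 by limma). Its neighbour Acot1, the cytosolic form, was at 2.25, 2.6, 1.92 and 1.86 FPKM in knockout, 4.34, 3.71 and 5.35 in TAC and 9.65, 11 and 9.88 in control (-0.79, limma adjusted p 0.00823), though 12.5% of its stretches are shared. Fitm2, which forms lipid droplets, was at 28.8, 27.6, 28.3 and 25.7 FPKM in knockout, 43.6, 52.1 and 40.4 in TAC and 63.7, 62.3 and 63 in control (-0.69, limma adjusted p 0.0054). In all 3 the order was control above TAC above knockout. Lpl, which frees fatty acids from lipoproteins, and Agpat3, which makes phosphatidic acid, were lower, at -0.75 and -0.46 (kept in 15 and 9).

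Of 29 fatty acid oxidation genes, Cd36, the fatty acid transporter, and Acadl, a dehydrogenase of long chains, were called lower (1.7% of all tested). Cd36 was at 426, 381, 403 and 341 FPKM in knockout, 507, 649 and 675 in TAC and 687, 699 and 691 in control (-0.65, adjusted p 0.0206, kept in 18). Acadl differed by -0.71 (kept in 11). The other 27 did not pass, although 26 of 29 lay below 0 with a median of -0.22. The glucose kinase Hk2 was lower (-0.46, kept in 9), as were the lactate and ketone transporter Slc16a1 (-0.53, kept in 14), the ketone enzyme Bdh1 (-0.69, kept in 11) and the creatine transporter Slc6a8 (-0.55, kept in 23). Prkag1, a regulatory subunit of the energy sensor AMPK, was the exception, at 57.1, 57, 63.3 and 46.2 FPKM in knockout, 31.2, 34.9 and 33.7 in TAC and 40.8, 41.3 and 42.3 in control (0.73, adjusted p 0.0062), and was higher in knockout in every alternative.

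No gene was called among 37 of complex I, 41 of complexes II to V, 8 encoded by mitochondrial DNA, 25 of the tricarboxylic acid cycle and pyruvate entry, or 20 regulators of the PPAR, ERR and PGC-1 group. Over all tested gene IDs, 3.28% were called. Fuel genes outside the lists were called in both directions. Pdp2, a pyruvate dehydrogenase phosphatase, was higher in knockout (0.645) and Acsl6, an acyl-CoA synthetase, lower (-0.967), both picked out after their values were seen. The medians of complex I (-0.02), of complexes II to V (-0.01) and of the mitochondrially encoded genes (-0.07) lay near 0 and turned positive without rescaling. Summed levels overlapped, with 9066 to 12410 FPKM for complex I in knockout and 9827 to 12540 in TAC.

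**Figure D4:**
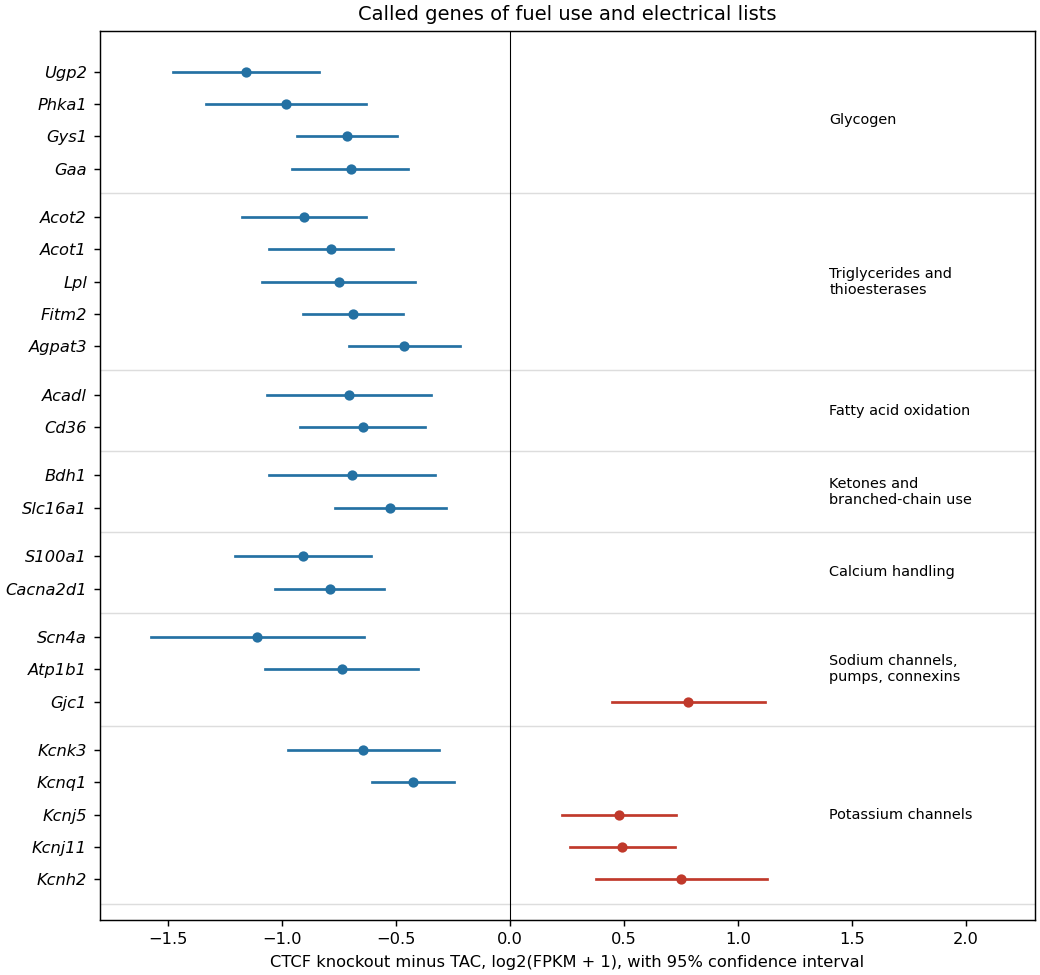
Points are the differences of knockout minus TAC on the log2(FPKM + 1) scale for called genes reported from 7 fuel and ion transport lists, with 95% confidence intervals as lines. All genes of the 4 fuel lists shown and both calcium handling genes lie to the left of 0, while sodium and potassium channel genes lie on both sides.

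Among matrix genes 3 of 32 were called, against 3.28% of all tested. Thbs4, a thrombospondin of stressed muscle, was at 2.9, 3.24, 2.57 and 3.16 FPKM in knockout, 5.59, 5.38 and 4.51 in TAC and 0.621, 0.874 and 0.772 in control (-0.63, adjusted p 0.0129, kept in 21 of 23). Comp, a related glycoprotein, was higher in knockout, at 6.25, 6.15, 4.63 and 5.49 FPKM in knockout, 3.06, 3.99 and 3.5 in TAC and 0.348, 0.264 and 0.477 in control (0.55, adjusted p 0.0333, kept in 13 of 23). Col4a2, a basement membrane collagen, was lower, at -0.53 (kept in 13). In the TGF-beta family 3 of 20 were called, all higher in knockout (1.58% of all tested). Smad7, an inhibitor of the pathway, was at 9.93, 9.6, 8.25 and 7.54 FPKM in knockout, 3.89, 5.03 and 5.14 in TAC and 4.52, 3.68 and 4.25 in control (0.79, adjusted p 0.00777). The ligand Tgfb3 and the latent TGF-beta binding protein Ltbp1 were higher by 0.64 and 0.52 (kept in 19 of 23 and 20 of 24). The median of that list was -0.03 and changed sign without rescaling.

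The stress and growth lists of the called genes named here held 1 or 2 calls each, against 3.28% of all tested gene IDs, and other stress lists held none. Phlda3, a p53 target that restrains AKT, was at 8.75, 11.6, 11.5 and 7.99 FPKM in knockout, 4.47, 3.18 and 5.17 in TAC and 1.5, 2.27 and 1.7 in control (1.06, adjusted p 0.00823), and was the called gene of 17 p53 targets. Ddit3, a transcription factor of the integrated stress response, was higher by 0.52, the cyclin Ccnd1 by 0.55, the class I antigen H2-K1 by 0.59, and the growth factors Fgf1 and Angpt1 by 0.47 and 0.60. Lower in knockout were the small heat shock proteins Hspb6 (-0.60) and Hspb7 (-0.65), the antioxidant enzyme Gpx1 (-0.41), the ubiquitin ligase Fbxo30 (-0.42) and the endothelin receptor Ednra (-0.72). Of these 10 calls, that of Angpt1 was kept in 9 of 23 alternatives and the others in 8 to 17 of 24. Prnp, from the nerve marker list, was lower, at -0.65 (kept in 16), and was the only gene of that list abundant enough to be tested. Irx3, a homeobox factor of the conduction system, was at 7.8, 7.79, 9.34 and 7.13 FPKM in knockout and 4.06, 5.28 and 4.95 in TAC (0.65, adjusted p 0.0136, kept in 23). No gene was called among 23 chaperones of the endoplasmic reticulum, of which 22 lay below 0 (median -0.19), or 43 cytoplasmic ribosomal proteins, of which 42 lay above 0 (median 0.15). Of 24 tested interferon response genes, 20 lay above 0 and 4 below (median 0.22). Only H2-K1 was called among them, where 1.58% of all tested gene IDs were called higher.

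Most cell cycle genes had positive differences, with knockout replicate 4 highest among the knockout libraries in Cdk1 and Ube2c and lowest in Mnd1. Of 19 tested, 18 lay above 0 with a median of 0.77, but only Mnd1, a gene of meiosis, was called, against 3.28% of all genes. Cdk1, the mitotic kinase, was at 2.45, 2.44, 3.36 and 10.5 FPKM in knockout and 1.33, 0.919 and 0.825 in TAC (1.29, adjusted p 0.0626 by limma), and Ube2c, a mitotic ubiquitin carrier, at 2.95, 3.59, 3.22 and 11.7 and 1.74, 1.19 and 0.649 (1.38, adjusted p 0.0538). The other 3 knockout libraries were also above all TAC libraries in both genes. The list summed to 64.4 to 149 FPKM in knockout and 28.7 to 43.7 in TAC. Replicate 4 is also the only male knockout library, and the part of sex or of other dividing cells in this was not tested.

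**Figure D5:**
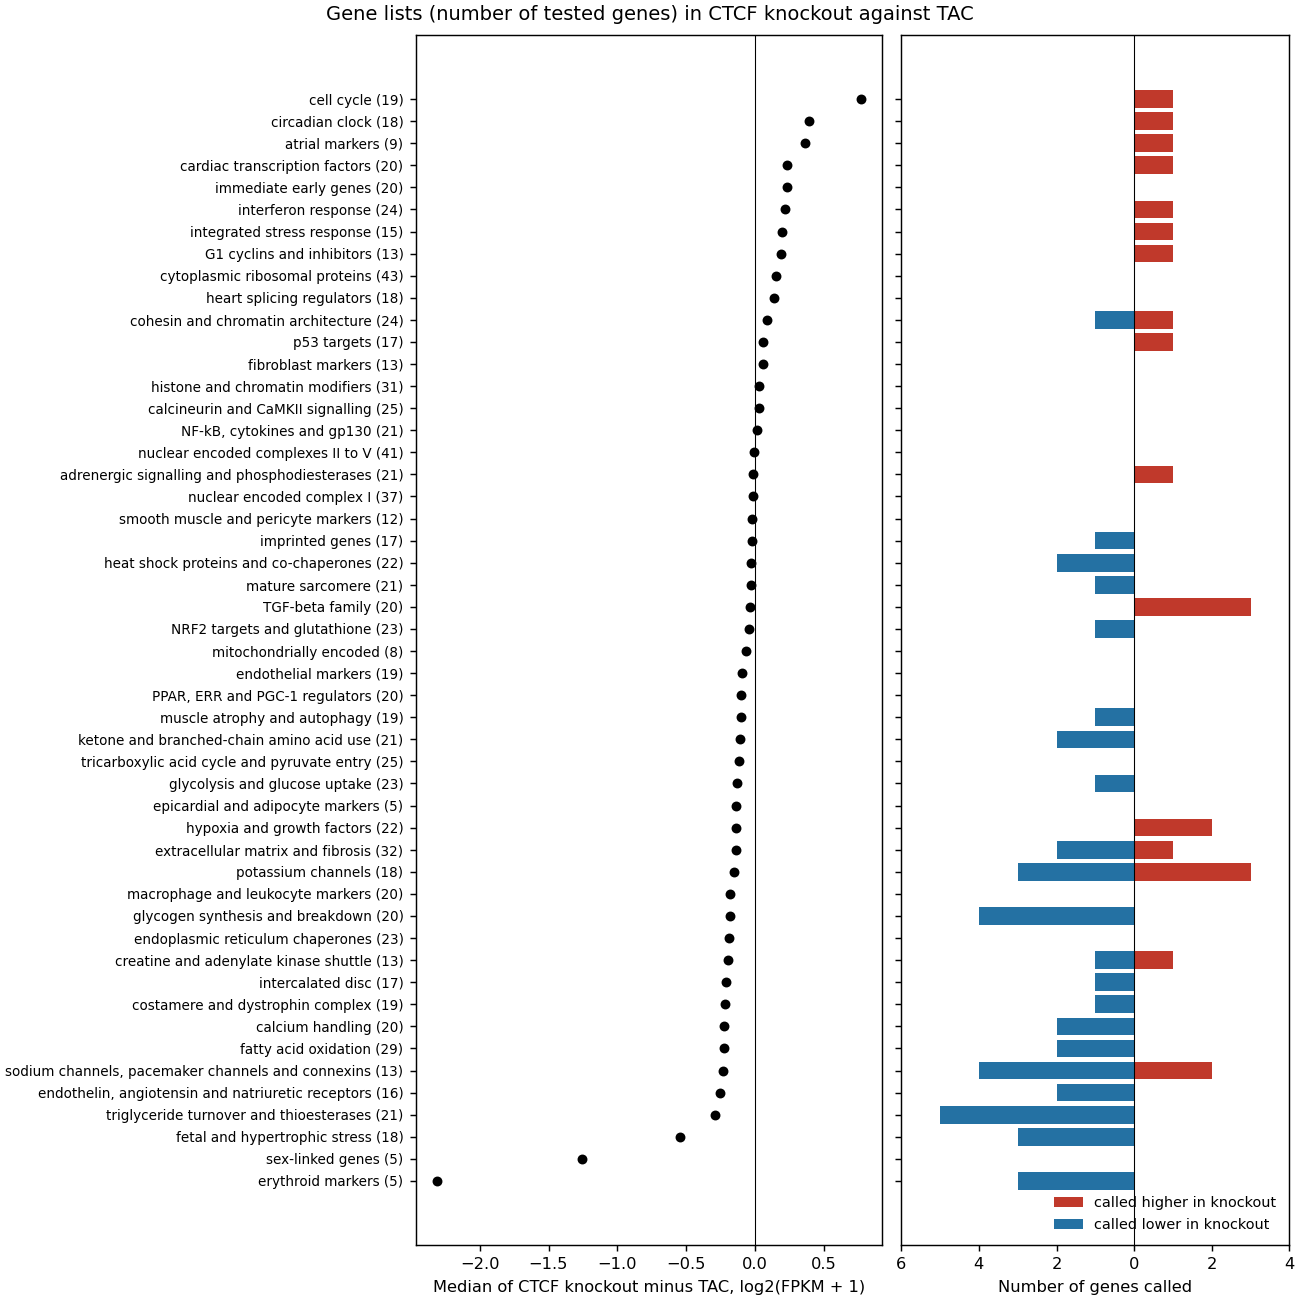
The left panel gives the median difference of knockout minus TAC for each gene list with at least 5 tested genes, on the log2(FPKM + 1) scale, and the right panel the number of its genes called higher (red) or lower (blue) in knockout. Medians are largest for cell cycle (0.77) and erythroid genes (-2.31), and the list with most calls in 1 direction is triglyceride turnover, with 5 lower.

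In most clock genes the groups did not overlap, though few passed the threshold. Of 18 tested, 13 had groups that did not overlap, against 18.1% of all genes, and 1 was called. Hlf, a clock output factor, was at 3.23, 2.31, 2.24 and 3.07 FPKM in knockout, 1.23, 1.05 and 0.812 in TAC and 4.59, 3.56 and 3.38 in control (0.87, limma adjusted p 0.00851). Dbp, another output factor, was at 31, 29, 33.5 and 25.7 FPKM in knockout and 5.8, 11.2 and 5.91 in TAC (1.89, adjusted p 0.0571), and the core activator Arntl at 0.37, 0.566, 0.755 and 0.509 and 5.05, 3.14 and 4.6 (-1.75, adjusted p 0.0835). The controls were split: Dbp was at 19.3, 36.5 and 4.58 FPKM and Arntl at 0.549, 0.296 and 7.59, with replicate 3 resembling TAC and replicates 1 and 2 resembling knockout. Because the controls enter the estimate of the spread, this split widens the standard errors of the knockout and TAC comparison (0.50 for Arntl). A missed threshold in these genes is therefore not a sign that knockout and TAC differ little. The labels give no time of day of collection, and its part in these differences was not tested.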

How the data were processed

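Per the labels' protocols, RNA of isolated myocytes was depleted of ribosomal RNA with Ribo-Zero and sequenced as stranded paired-end libraries, although polyA RNA is the labelled molecule. Cufflinks 2.2.1, Cuffdiff, Bowtie2, TopHat2 2.1.0 and the build mm10 come from the submitters' processing notes, which give neither roles nor annotation here. The deposited files list, in their attribute field, an FPKM for each of 109869 transcripts, and the authors' score of each transcript, which was not used. They hold no counts, so count models could not be used and depth is unknown. Coverage per FPKM, a relative measure of it, had medians of 3.90 to 5.08 in knockout and 4.05 to 6.09 in TAC.

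Transcript FPKM was summed by gene ID (45882). Gene IDs whose longest transcript was under 300 nt were left out, as were 22 listed at 0 in some libraries and with a median of at least 100 FPKM in the others. Median-of-ratios factors rescaled the libraries, and 11358 gene IDs with a mean of at least 1 FPKM were tested, 10327 of them protein-coding. On log2(FPKM + 1), which understates changes of low genes, limma 3.58.1 in R 4.3.3 fitted all 10 libraries with a variance trend, so controls inform the spread. P-values were two-sided. Some panel and list genes are not reported here, although counts over a list include those that were tested.

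Named genes were Ctcf, the panel, the 15 highest and 15 lowest called differences among protein-coding or long noncoding genes with a symbol, and the genes of each list with the lowest p or needed to state a count. For the sets of 15, the types allowed were protein-coding, long intergenic noncoding, antisense, processed transcript or no known type. D330025C20Rik, at 1.92, has another annotated type and was therefore not among the 15 highest. The 55 lists and the members were chosen with earlier results of these data known. The 969 distinct list genes tested held 63 called genes (6.50%). Shared sequence was measured as 100-base stretches of a gene's longest transcript (GENCODE M21) found in other gene IDs. Samples with the same replicate number come from different mice and were not treated as pairs. The 24 alternatives changed the pseudocount, filters, scaling, model, libraries and transcript sum.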

Additional observations from a re-analysis of the deposited data

Results flagged for a closer look

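The 4 knockout libraries were examined for a single value far from the other 3, in 90 named genes. In 7 genes the gap between that value and its nearest neighbour took more of the whole range than a 95% limit allows, where chance alone gives about 1 in 20. Replicate 4 was high for Cdca3 at 6.16 FPKM, where the others were at 1.56 to 2.04, and for Stmn1 at 29.4, where the others were at 10.4 to 12.6. It was low for the channel gene Kcnj11 at 34.7 FPKM, with the others at 42.8 to 44.1. Replicate 2 was high for the red cell gene Alas2 at 3.83 FPKM (others 0.888 to 1.17) and for Phka1 at 11.9 (others 7.55 to 7.97). Replicate 1 was high for Timp4 at 3.85 FPKM (others 0.934 to 1.24) and low for Rcan1 at 48.0 (others 64.3 to 66.4). Replicate 3 held none of the 7. In these genes the value lay toward the TAC libraries for Kcnj11, Alas2, Phka1 and Timp4, and away from them for Cdca3, Stmn1 and Rcan1. The TAC group, with 3 libraries, was not examined this way.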

How the results depend on the processing

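Apart from leaving out 1 library, the total of called genes moved by more than 1.5 times under 3 settings. These were no filter on the mean (195 called, 93 higher and 102 lower), sex as a covariate (233, 117 and 116) and a replicate block (below). A mean of at least 5 FPKM gave 95 higher, and no rescaling 120 lower. Leaving out 1 library gave 133 to 443 called, 62 to 223 higher and 65 to 220 lower. The total also moved by more than 1.5 times without knockout replicate 1 or 3 or any TAC replicate. The Ctcf difference stayed negative in all 24 alternatives, at -0.77 to -0.54 on leaving out 1 library. It lost its call, at -0.67, without the filter on the mean (limma adjusted p 0.136), without the filter on length (0.0655), in a fit of the 7 libraries only (0.0638) and without a variance trend (0.0505), and at -0.58 with sex as a covariate (0.111). Medians of 10 of 53 lists changed sign with the scaling, among them those of the sarcomere, respiratory complexes and heat shock proteins.

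Same-numbered knockout and TAC libraries were checked for pairing. Their deviations correlated at -0.36, 0.04 and 0.18, and they come from different mice, so the numbers were not taken as pairs. A fit with the replicate block called 200 genes, 112 higher and 88 lower, and gave Ctcf a difference of -0.77. Of the 85 named calls, 39 were lost under it, 47 without TAC replicate 2, and 46 without TAC replicate 1. The causes were not tested. With 4 and 3 libraries and no read counts, low genes and small differences are the least certain.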

Other observations

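Replication-dependent histone genes, which no list held, were picked out after their values were seen. Hist1h4d was at 61.9, 61.7, 66.7 and 63.1 FPKM in knockout, 34, 40.4 and 45.1 in TAC and 37.4, 46.1 and 58.3 in control (0.67, adjusted p 0.0296 by limma). Hist1h4h (0.43), Hist2h2be (0.56), Hist2h3c2 (0.61) and Hist3h2a (0.59) were also called higher in knockout, as were 1.58% of all tested gene IDs. All are named here because they were called. The tested histone genes were not counted and the others are not described, so nothing is said about the family as a whole. For Hist2h2be the control values were 2.87, 2.59 and 3.32 FPKM, beside 2.73, 2.49, 3.19 and 2.9 in knockout and 1.51, 1.69 and 1.6 in TAC, so that TAC stood below both other groups. Many transcripts of this family lack a polyA tail, and the labels disagree on how RNA was selected.

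Called genes were neighbours on the chromosome in 27 of 11336 pairs of adjacent tested genes, and in 19 of the 27 both moved in the same direction. Over all tested gene IDs, 3.28% were called, 1.58% higher and 1.7% lower. Some pairs that moved together share sequence or overlap, such as Hba-a1 with Hba-a2, Acot1 with Acot2, Wrnip1 with D930007J09Rik and Xirp2 with Gm13601, so their members are not independent. Others lie further apart: Fam149a and the double-stranded RNA sensor gene Tlr3, with starts 28317 bases apart, were both higher in knockout (0.70 and 1.31), as were the purinergic receptor gene P2rx4 and the kinase gene Camkk2, 71865 bases apart (0.95 and 0.61). Opposite directions were seen for Cd36 and Gnai1, which are adjacent among tested genes at 471554 bases (-0.65 and 1.30), and for Slc22a4 and Pdlim4 at 40924 bases (-0.85 and 0.74). These pairs were chosen after their values were seen, and whether neighbours share a direction more often than other genes was not tested.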
